A study of Mus musculus with 16 samples.

Results

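Trp53, the gene of the tumour suppressor p53, and 5 genes that regulate p53 and are in part its own targets (Mdm2, Mdm4, Ppm1d, Ccng1 and Rchy1) were followed in primary alveolar type II cells kept in normal or high oxygen. These 6 genes were chosen by name among the 34781 gene names of the array, with earlier results of these data known. Their counts and ranks beside all genes are therefore a description. They are covered by 7 of its 55681 non-control probes, 1 for each gene and a second for Mdm4. Where a gene had more than 1 probe, the one with the highest mean log2 signal over all 16 arrays stood for it, which were means of 7.58 against 7.28 for the probes of Mdm4.

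The cells, which make surfactant in the lung alveolus, came from lungs of C57BL/6 mice. The gas held 21% O2 in the normoxia groups and 85% O2 in the hyperoxia groups, and cells of each were taken after 6 h and after 24 h. All 4 groups share the strain and cell type, and the labels name no other agent or allele. Each group has 4 arrays. The labels do not say whether these came from separate cultures or animals, so p-values measure the spread between these samples only, which may be technical.

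p53 is a transcription factor that is kept scarce in unstressed cells and accumulates after DNA damage, when it switches on genes of cell cycle arrest, repair and cell death. Among the genes it switches on are its own inhibitors, so that its activity feeds back on itself. Mdm2 and Rchy1 (also known as Pirh2) are ubiquitin ligases that mark p53 for degradation. Mdm4 (also known as Mdmx) is a relative of Mdm2 that binds p53, blocks its activity and pairs with Mdm2. Ppm1d (Wip1) is a phosphatase that removes activating phosphates from p53 and from the kinases of the DNA damage response. Ccng1, cyclin G1, brings the phosphatase PP2A to Mdm2. High oxygen is a known source of reactive oxygen species and DNA damage in lung epithelium.

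Each array reads a gene through a probe of 60 bases, so the values below describe the stretch of transcript that the probe matches. The first 30 bases of the member probes, in the direction of the transcript, show which part of each gene was read, and the 2 probes of Mdm4 are set together because they gave different results:
Trp53 probe: ccttagagttaaaggatgcccatgctacag
Mdm2 probe: ggcagcttcagtcccgatttacaataaagt
Mdm4 probe 1: acagatattttttctgagcagaaagctgaa
Mdm4 probe 2: gacccattaagctctgtttacagccttgaa
Ppm1d probe: gtgaagtttttcttgctatttcaataacaa
Ccng1 probe: agaaataaaattgctgagtttatctgcaaa
Rchy1 probe: gaggattcaagatctctggatggaaatgta
In the mm9 build of the files, the Trp53 probe lies on chromosome 11 (69404204 to 69404263, plus strand) and the Mdm2 probe on chromosome 10 (117126010 to 117126069, minus strand). Probe 1 of Mdm4 lies on chromosome 1 (134888407 to 134888466, minus strand) and starts at base 1445 of its transcript. Probe 2 of Mdm4 (134886426 to 134886485, same strand) starts at base 3426, farther toward the 3′ end. The Ppm1d probe (85160442 to 85160501, plus strand) and the Ccng1 probe (40562427 to 40562486, minus strand) are on chromosome 11. The Rchy1 probe is on chromosome 5 (92378571 to 92378630, minus strand). All 7 probes were well above background on every array. The Trp53 probe is printed on 2 spots, whose log2 signals differed by 0.05 in the median array and 0.11 at most.

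Values are log2 signals relative to the 75th percentile of the array (0 on this scale), and cannot be compared between genes. Per array, 53.7% to 69.0% of probes exceeded background clearly. The signal at the 75th percentile ranged from 556 to 801 in the 24 h arrays and from 899 to 1021 in those of 6 h. All 24 h arrays stood on 1 slide and all 6 h arrays on another, and within a slide normoxia and hyperoxia took separate rows. Time cannot therefore be told apart from slide, nor oxygen from slide row. Replicates 1 to 4 of each group took slide columns 1 to 4, so replicate number cannot be told apart from slide column. Of 10 type II cell markers, 9 were well above background on every array at 6 h, among them the surfactant genes Sftpc and Sftpb, while Slc34a2 was so on 0 of 16 arrays. At 24 h 8 of the 10 were so on every normoxia array and 9 on every hyperoxia array. All 5 type I, 6 macrophage and 5 lymphoid cell markers were well above background on every array at 6 h. All 8 markers of fibroblasts and smooth muscle were well above background on every array too. Their summed signal, in units of the 75th percentile, lay between 862 and 1138 in the 6 h arrays and between 1456 and 1795 in the 24 h arrays. Of the 8, 0 were called with hyperoxia at either time. Of all genes tested, 0.236% were higher and 0.0905% lower in hyperoxia at 6 h. With shares this low, 0 calls at 6 h in any of these short lists do not show that cell types held steady. Such sums follow the brightest probes of a list and do not show a shift of the whole list. At 24 h, 4 of 9 tested type II markers were lower in hyperoxia and 1 was higher, where 12.8% of all genes were lower and 15.5% higher. Lower were Lamp3 (-1.03 ± 0.08), Sftpb (-0.95 ± 0.25), Etv5 (-0.79 ± 0.09) and Lpcat1 (-0.28 ± 0.10). Abca3 was higher (0.68 ± 0.10), and 4 were not called, among them Sftpc (0.45 ± 0.43). The list's summed signal was 29.3 to 36.4 against 39.5 to 45.1 in normoxia. At 6 h 0 of 9 were called, with sums of 56.2 to 80.4 in hyperoxia and 60.0 to 73.9 in normoxia. Among 6 macrophage markers 0 were called at 6 h and 1, Cd68, was higher in hyperoxia at 24 h (1.02 ± 0.09 on the log2 scale). The summed signals of this list at 24 h were 67.7 to 74.9 in hyperoxia against 53.8 to 69.0 in normoxia. The neutrophil marker S100a8 (1.75 ± 0.39, 1 of 4 markers) and the club cell marker Scgb1a1 (0.78 ± 0.25, 1 of 3 tested) were higher at 24 h too. The summed signal of the neutrophil list was 49.5 to 58.1 in hyperoxia against 49.3 to 54.9 in normoxia, and that of the club cell list was 7.23 to 9.12 against 7.11 to 8.61. No marker of type I, endothelial, ciliated or lymphoid cells was called with hyperoxia at either time. The part of these cells in the results below was not tested, and in bulk RNA fewer cells of a type and less RNA per cell cannot be told apart.

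The feedback genes responded to oxygen while Trp53 itself was not called (the plot of values by array). After 6 h of hyperoxia 2 of the 6 members rose, Mdm2 and Ccng1, and 1 fell, Mdm4. A gene is said to rise or fall where its adjusted p was under 0.05. Over all 25408 genes tested, 0.236% rose and 0.0905% fell. After 24 h, 4 members rose (Mdm2, Ccng1, Ppm1d and Rchy1) and 1 fell (Mdm4), where 15.5% and 12.8% of all genes rose and fell. The median log2 fold change of the members was 0.14 at 6 h and 0.58 at 24 h, against 0.01 over all genes at each time.

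**Figure D1:**
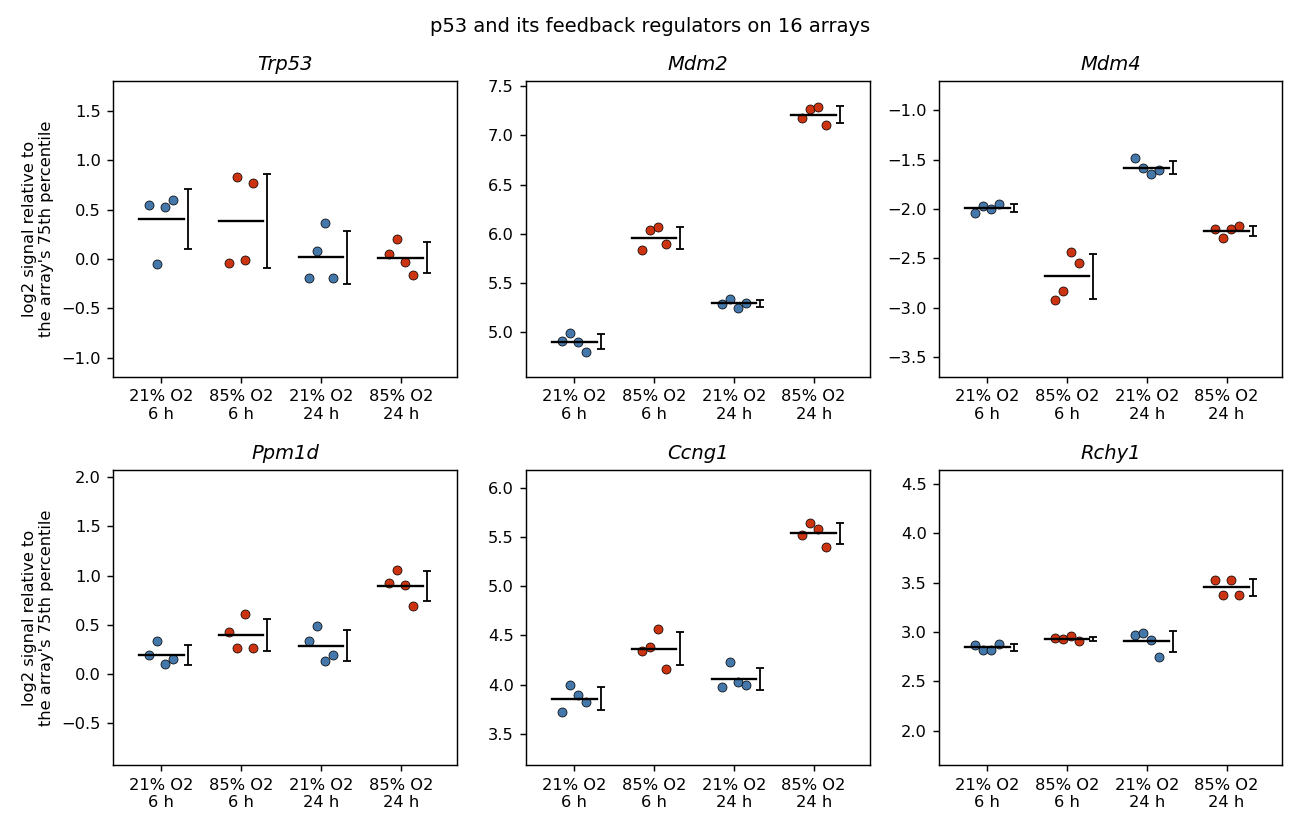
Log2 signal of the 6 genes relative to the 75th percentile of each array, in the 4 groups of oxygen and time. Points are arrays (replicates 1 to 4 from left to right), lines are means and bars are SD of 4 arrays, and every panel spans 3 log2 units. Mdm2 and Ccng1 are highest in hyperoxia at 24 h, Mdm4 is lower in hyperoxia at each time, and Trp53 overlaps between all groups.

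Trp53 was the member with the widest spread and showed no change with oxygen that these arrays could detect. In normoxia at 6 h replicates 1 to 4 read 0.54, -0.052, 0.52 and 0.60. In hyperoxia at 6 h they read -0.04, 0.83, -0.01 and 0.77. The groups overlapped, and within hyperoxia replicates 2 and 4 stood far above 1 and 3. At 24 h the values were -0.19, 0.08, 0.37 and -0.19 in normoxia against 0.05, 0.20, -0.03 and -0.16 in hyperoxia, again with overlap. The hyperoxia effect was -0.02 ± 0.21 (SE) at 6 h (adjusted p = 0.999) and -0.0030 ± 0.21 at 24 h (adjusted p = 0.994). Its 95% intervals, from -0.47 to 0.44 and from -0.46 to 0.45, leave room for a change of up to these sizes in either direction. The within-group SD of Trp53, 0.32, compared with 0.17 for the median gene, and 19.7% of genes had a larger one. Since the 2 spots of its probe differed by no more than 0.11 on any array, this spread lay between arrays and not between spots. Between the times Trp53 averaged -0.39 ± 0.21 in normoxia and -0.37 ± 0.21 in hyperoxia for 24 h against 6 h, and neither passed (adjusted p = 0.155 and 0.157).

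Mdm2, the main ubiquitin ligase of p53, had the smallest p of all 25408 genes at 6 h of hyperoxia and ranked 2 at 24 h. Normoxia at 6 h read 4.91, 4.99, 4.91 and 4.81, and hyperoxia 5.84, 6.04, 6.07 and 5.89. At 24 h normoxia read 5.29, 5.34, 5.25 and 5.30, and hyperoxia 7.18, 7.27, 7.29 and 7.10. Every hyperoxia array thus lay above every normoxia array, at each time and also across times. The rise was 2.08-fold at 6 h (log2 fold change 1.05 ± 0.07, adjusted p = 6.31e-06) and 3.77-fold at 24 h (1.91 ± 0.07, adjusted p = 5.28e-10). By size alone it ranked 34 among rises at 6 h and 101 at 24 h, so that its small p rests on a small spread as well, with an SD within groups of 0.08 against 0.17 for the median gene. Mdm2 also rose from 6 h to 24 h in normoxia, by 0.39 ± 0.07 (adjusted p = 0.000472), and in hyperoxia by 1.25 ± 0.07 (adjusted p = 5.11e-09). On the scaled values the order of its groups had no overlap between neighbours. It ran from normoxia at 6 h through normoxia at 24 h and hyperoxia at 6 h to hyperoxia at 24 h.

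Mdm4, the relative of Mdm2 that blocks p53 without degrading it, moved the other way. Probe 1 read -2.04, -1.97, -2.00 and -1.95 in normoxia at 6 h and -2.92, -2.83, -2.43 and -2.55 in hyperoxia. At 24 h it read -1.48, -1.58, -1.65 and -1.60 in normoxia and -2.20, -2.30, -2.21 and -2.18 in hyperoxia. The oxygen groups did not overlap at either time, and the hyperoxia arrays at 6 h were the most scattered. Mdm4 fell 1.62-fold at 6 h (-0.69 ± 0.09, adjusted p = 0.00219), which ranked 24 by p over all genes. At 24 h it fell 1.56-fold (-0.64 ± 0.09, adjusted p = 9e-05), a rank of 1430. In a fit to the 8 arrays at 6 h alone the fall had an adjusted p of 0.108. Over time it rose in both oxygen groups, by 0.41 ± 0.09 in normoxia and 0.46 ± 0.09 in hyperoxia (adjusted p = 0.00251 and 0.000761). Before the arrays were scaled, the signals of probe 1 in normoxia were 237 to 261 at 6 h and 177 to 250 at 24 h. In hyperoxia they were 128 to 166 and 148 to 174. These calls over time were made after scaling.

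Probe 2 of Mdm4, nearer the 3′ end, gave a smaller change with oxygen and a larger one with time. It read -2.50, -2.60, -2.54 and -2.76 in normoxia and -2.91, -2.80, -2.86 and -2.80 in hyperoxia at 6 h. At 24 h the values were -1.86, -2.15, -1.92 and -1.94 against -2.29, -2.26, -2.13 and -2.23. The oxygen groups stood apart at 6 h and overlapped at 24 h. The change at 6 h, -0.24 ± 0.07, did not pass (adjusted p = 0.348), and that at 24 h, -0.26 ± 0.07, did (adjusted p = 0.0171). Before the arrays were scaled, the signals of probe 2 at 24 h were 146 to 185 in normoxia and 156 to 164 in hyperoxia. The call at 24 h was made after scaling. From 6 h to 24 h probe 2 rose by 0.63 ± 0.07 in normoxia and 0.61 ± 0.07 in hyperoxia. Its signals before scaling at 6 h were 144 to 173 in normoxia, which overlapped with 24 h, and 124 to 143 in hyperoxia, which did not. The difference between the probes on an array, probe 1 less probe 2, was compared after these values were seen. It averaged 0.61 ± 0.15 (SD, n = 4) in normoxia and 0.16 ± 0.22 in hyperoxia at 6 h, and 0.39 ± 0.13 against 0.01 ± 0.08 at 24 h. These groups did not overlap at either time. Since the comparison was prompted by these values, it is given as a description with no test.

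Mdm2 and Mdm4 were also set against each other within each array, which removes any scaling between arrays. Relative to the mean of normoxia at 6 h, the log2 difference of Mdm2 less Mdm4 (probe 1) lay between -0.14 and 0.07 in normoxia at 6 h and between -0.12 and 0.03 in normoxia at 24 h. In hyperoxia it lay between 1.55 and 1.97 at 6 h and between 2.39 and 2.67 at 24 h. Hyperoxia thus moved Mdm2 against probe 1 of Mdm4 by 3.36-fold at 6 h and 5.88-fold at 24 h. Probe 2 fell by less with hyperoxia (-0.24 at 6 h and -0.26 at 24 h), so its distance from Mdm2 moved by less. In normoxia the difference at 24 h averaged -0.02 ± 0.07 (SD, n = 4) on this scale, which holds for probe 1 of Mdm4. Over time in normoxia Mdm2 rose by 0.39, probe 1 of Mdm4 by 0.41 and probe 2 by 0.63 on the log2 scale, after scaling of the arrays. The plot of Mdm4 by probe shows these values.

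**Figure D2:**
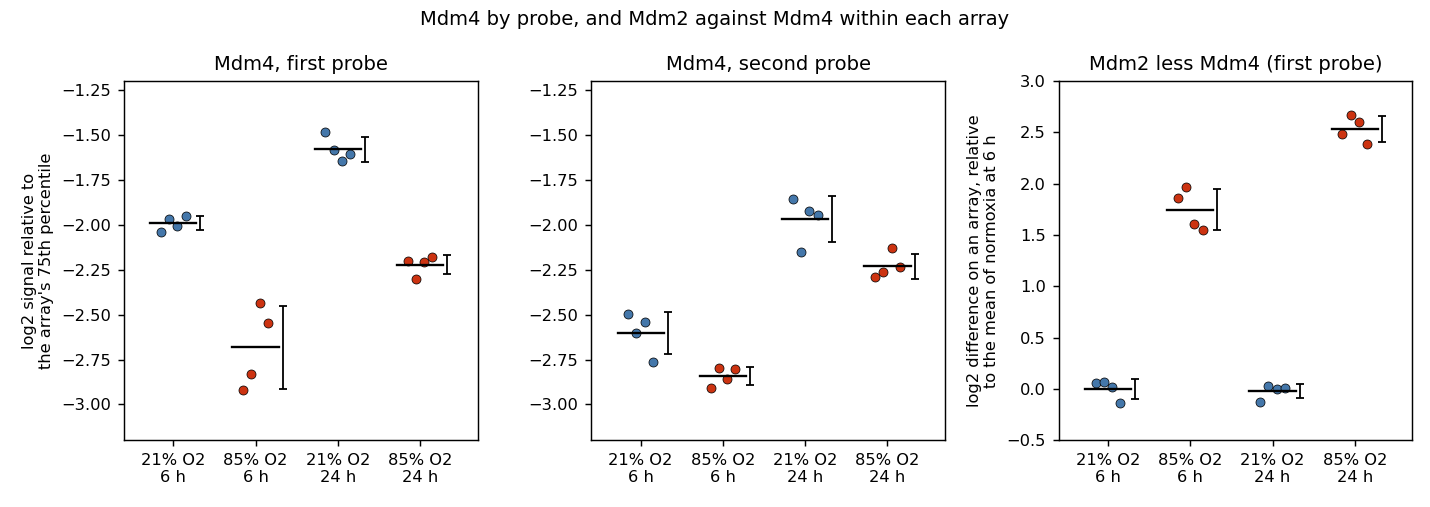
Log2 signal of the 2 probes of Mdm4 relative to the 75th percentile of each array (left and middle). The right panel shows the log2 difference of Mdm2 less Mdm4 (first probe) on each array, relative to its mean in normoxia at 6 h. Points are arrays, lines are means and bars are SD of 4 arrays. The first probe is lower in hyperoxia without overlap at each time, the second by less, and the Mdm2 difference in hyperoxia exceeds 1.5 on every array.

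Rchy1, the other ubiquitin ligase, rose at 24 h and did not pass at 6 h. At 6 h it read 2.87, 2.81, 2.82 and 2.88 in normoxia and 2.94, 2.93, 2.96 and 2.91 in hyperoxia, groups that lay close together without overlap. At 24 h it read 2.97, 2.99, 2.92 and 2.75 in normoxia and 3.53, 3.38, 3.53 and 3.37 in hyperoxia. The difference at 6 h was 0.09 ± 0.06 and did not pass (adjusted p = 0.861, 95% interval -0.05 to 0.22). At 24 h Rchy1 rose 1.46-fold (0.55 ± 0.06, adjusted p = 1.35e-05). With Rchy1, groups did not overlap for 4 members at 6 h, where 4.32% of all genes had no overlap, and for 5 members at 24 h, where 33.2% had none.

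Ppm1d, the phosphatase, also rose at 24 h. It read 0.19, 0.34, 0.10 and 0.15 in normoxia and 0.43, 0.27, 0.61 and 0.27 in hyperoxia at 6 h, with overlap. At 24 h it read 0.33, 0.49, 0.14 and 0.19 in normoxia and 0.93, 1.05, 0.90 and 0.69 in hyperoxia, without overlap. The change was 0.20 ± 0.10 at 6 h (adjusted p = 0.74, 95% interval -0.02 to 0.42) and 0.61 ± 0.10 at 24 h, a 1.52-fold rise (adjusted p = 0.000429).

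Ccng1, which recruits PP2A to Mdm2, had the largest rise of the members after Mdm2. It read 3.72, 4.00, 3.89 and 3.82 in normoxia and 4.34, 4.38, 4.57 and 4.16 in hyperoxia at 6 h. At 24 h the values were 3.97, 4.23, 4.03 and 4.00 against 5.52, 5.64, 5.58 and 5.40. All hyperoxia arrays lay above all normoxia arrays of the same time. Ccng1 rose 1.42-fold at 6 h (0.51 ± 0.09, adjusted p = 0.0285) and 2.78-fold at 24 h (1.48 ± 0.09, adjusted p = 2.93e-08). The call at 6 h was close to the threshold. It ended without normoxia replicate 1 (adjusted p = 0.106), 3 (0.0699) or 4 (0.114) and without hyperoxia replicate 1 (0.0665) or 2 (0.0825), with log2 fold changes of 0.46 to 0.52. In a fit to the 8 arrays at 6 h alone its adjusted p was 0.216.

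**Figure D3:**
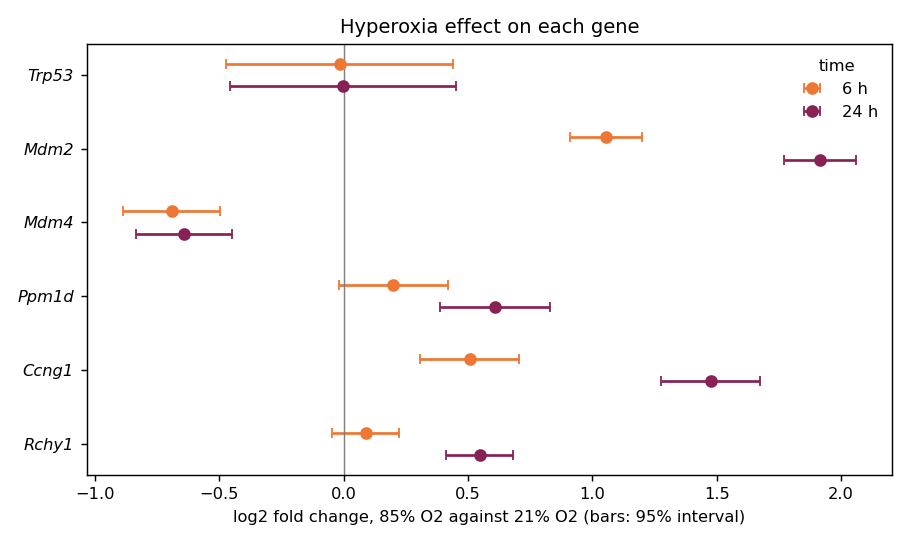
Log2 fold change of each gene in hyperoxia against normoxia at 6 h and 24 h, with 95% intervals from the limma fit to 16 arrays. Mdm2, Ccng1, Ppm1d and Rchy1 lie farther right at 24 h than at 6 h, Mdm4 lies left of 0 by about the same amount at each time, and the intervals of Trp53 are centred near 0.

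The growth of the hyperoxia effect between 6 h and 24 h passed for 3 members. Of all genes, 6.62% passed with a more positive and 5.63% with a more negative effect at 24 h. The gain was 0.97 ± 0.13 on the log2 scale for Ccng1 (adjusted p = 0.000217), 0.86 ± 0.10 for Mdm2 (adjusted p = 3.8e-05) and 0.46 ± 0.09 for Rchy1 (adjusted p = 0.00359). Ppm1d had a gain of 0.41 ± 0.15 that missed the threshold (adjusted p = 0.0878). It passed without normoxia replicate 2 at 24 h (adjusted p = 0.0493) or hyperoxia replicate 3 at 6 h (0.0266). For Mdm4 the effects differed by 0.05 ± 0.13 (95% interval -0.22 to 0.33), so that its fall was as deep at 6 h as at 24 h within this error. For Trp53 the difference was 0.01 ± 0.30. Since each time is 1 slide, the growth of an effect with time cannot be told apart from a difference between slides.

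With culture time in normoxia, from 6 h to 24 h, Mdm2 and Mdm4 rose, where 20.6% of all genes rose and 23.5% fell. Before the arrays were scaled, the normoxia signals of Mdm2 and of both Mdm4 probes overlapped between the times. Ccng1 changed by 0.20 ± 0.09 and did not pass (adjusted p = 0.0918), though it did with the replicate number as a block over both times (0.0381). Ppm1d (0.09 ± 0.10) and Rchy1 (0.06 ± 0.06) did not pass either. In hyperoxia 5 members rose over the same time, where 25% of all genes rose and 27.4% fell. These were Mdm2, Mdm4, Ccng1 (1.17 ± 0.09), Rchy1 (0.52 ± 0.06) and Ppm1d (0.50 ± 0.10). The comparisons over time share arrays with those between oxygen groups. Cell markers moved over the same time. In normoxia 6 of 9 type II markers fell, among them Sftpa1 (-2.91 ± 0.34), Sftpd (-2.81 ± 0.30) and Sftpc (-2.50 ± 0.43), and 1 rose. In hyperoxia 7 of 9 fell. Of 8 fibroblast and smooth muscle markers 6 rose in each oxygen group, and the club cell marker Scgb1a1 changed by -5.66 in normoxia and -5.02 in hyperoxia on the log2 scale. The part of these shifts in the changes of the members over time was not tested.

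The promoters of the members were read for the p53 consensus decamer, the 10-base unit of which p53 binding sites are made in pairs. Windows of 300 bases, 250 before and 50 after each RefSeq transcript start (GRCm38.p6), were searched on both strands, on which this motif reads alike. The windows of 5 of the 6 members held a decamer, in 5 of their 8 windows. Of all 32851 windows 8.36% held one, and of 27025 genes 9.55%. The matches are shown with the decamer in capitals and 10 bases to either side, in the direction of the gene:
Trp53 promoter: acccacggaaGGACTTGCCCttacttgtta
Mdm2 promoter: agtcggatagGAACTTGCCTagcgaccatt
Ppm1d promoter: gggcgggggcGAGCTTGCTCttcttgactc
Ccng1 promoter: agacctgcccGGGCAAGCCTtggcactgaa
Rchy1 promoter: cactatgacaGAGCTTGTCTcctcaaggtg
The decamers start 75 (Trp53), 186 (Mdm2), 132 (Ppm1d), 185 (Ccng1) and 90 (Rchy1) bases before the transcript start. The stretches lie on chr11:69580274-69580303 (plus strand), chr10:117710925-117710954 (minus), chr11:85311112-85311141 (plus), chr11:40755452-40755481 (minus) and chr5:91962627-91962656 (minus), in that order. Rchy1 has 2 windows and the match is in 1 of them, and the 2 windows of Mdm4, the member that fell, held none. A match is a stretch of letters and not evidence of binding, and Trp53, which did not pass, has one as well.

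For each member the genes with the nearest pattern were sought among the 17301 tested genes named through RefSeq. Patterns were compared by the root mean square difference of log2 values over 16 arrays, each gene centred on its mean. Nearest to Mdm2 was Cdkn1a, the cell cycle inhibitor p21 (difference 0.16, where Mdm2 itself varied with an SD of 0.91), with hyperoxia effects of 1.11 at 6 h and 1.84 at 24 h. It was followed by B3gnt4 (0.21) and Zfp365 (0.22). Nearest to Ccng1 were Dglucy, the DNA repair nuclease gene Ercc5 and Psrc1, at 0.11 to 0.12 against an SD of 0.68. Nearest to Ppm1d were Ubl3 (0.07), Mex3c (0.09) and Egfr, the receptor of epidermal growth factor (0.09), against an SD of 0.31. Rchy1 was matched by Smim14 (0.06) and Marchf5 (0.07), against an SD of 0.26. The matches of Mdm4 were looser, Atf7ip, Etv5 and Sult2a8 at 0.20 to 0.21 against an SD of 0.43, and Etv5 is one of the type II markers that were lower in hyperoxia at 24 h. Those of Trp53 were Ppp1r35, Cnot3 and Sorbs3 at 0.16 to 0.17 (SD 0.35).

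Other genes of the pathway were read in 7 lists, in the order of their place around p53 (the plot of pathway genes). The lists were drawn up with earlier results of these data known, so their counts beside all genes are a description. Of 32 direct p53 targets outside the feedback genes, 13 rose and 0 fell at 6 h, with a median log2 fold change of 0.45. Over all genes tested, 0.236% rose and 0.0905% fell at 6 h. At 24 h 26 targets rose and 0 fell, with a median of 1.13, where 15.5% of all genes rose and 12.8% fell. At 6 h the largest rise was that of Gdf15, which encodes a stress cytokine (1.22 ± 0.14, or 2.33-fold). Next came Eda2r, a receptor of the tumour necrosis factor family (1.18 ± 0.21, or 2.27-fold). The largest at 24 h were Pidd1, which encodes a death domain protein (5.65-fold, 2.50 ± 0.11), the mTOR inhibitor gene Ddit4l (5.41-fold, 2.44 ± 0.13) and Trp53inp1 (4.65-fold, 2.22 ± 0.14). In the test of the difference between the effects at 24 h and 6 h, 18 of the 32 passed as more positive and 0 as more negative. Of all genes, 6.62% passed as more positive and 5.63% as more negative.

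Genes that act on p53 from upstream are read against all genes. Of these 0.236% rose and 0.0905% fell at 6 h, and 15.5% rose and 12.8% fell at 24 h. Of 16 DNA damage sensors and kinases, 1 fell at 6 h, the kinase gene Atm (-0.28 ± 0.05, adjusted p = 0.037). At 24 h 8 fell and 0 rose, with a median of -0.22. The largest falls were of the histone variant gene H2ax (-0.69 ± 0.11), the adaptor gene Mdc1 (-0.59 ± 0.10) and the kinase gene Atr (-0.57 ± 0.11). Of 15 other ubiquitin ligases and deubiquitinases that act on p53 or Mdm2, 0 were called at 6 h and 2 fell at 24 h, the ligase gene Stub1 (-0.38 ± 0.08) and the deubiquitinase gene Usp10 (-0.26 ± 0.08). Of 14 genes of acetylation and cofactors, 0 were called at 6 h and 3 rose at 24 h. These were Pml, the organiser of nuclear bodies (1.81-fold, 0.86 ± 0.06), and the acetyltransferase genes Ep300 (0.45 ± 0.11) and Kat8 (0.29 ± 0.06).

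The last lists hold inhibitors of Mdm2 and relatives or partners of the members. Of 10 genes of Arf and of nucleolar or ribosomal inhibitors of Mdm2, 0 were called at 6 h. At 24 h the ribosomal protein gene Rps27l (0.53 ± 0.07) and Nop53 (0.25 ± 0.09) rose, and the nucleolar gene Gnl3 fell (-0.32 ± 0.07). Of 8 relatives of the members, 0 were called at 6 h. At 24 h the cyclin gene Ccng2 rose 1.53-fold (0.61 ± 0.17) and the phosphatase gene Ppm1g fell (-0.40 ± 0.11). Of 10 PP2A subunits, the partners of cyclin G1, 0 were called at 6 h. At 24 h Ppp2r5c (0.42 ± 0.13) and Ppp2r5d (0.19 ± 0.06) rose and Ppp2r5b fell (-0.36 ± 0.09). Each of these lists had calls in both directions at 24 h, where 15.5% of all genes rose and 12.8% fell, and their medians lay between -0.01 and 0.04 in both comparisons.

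**Figure D4:**
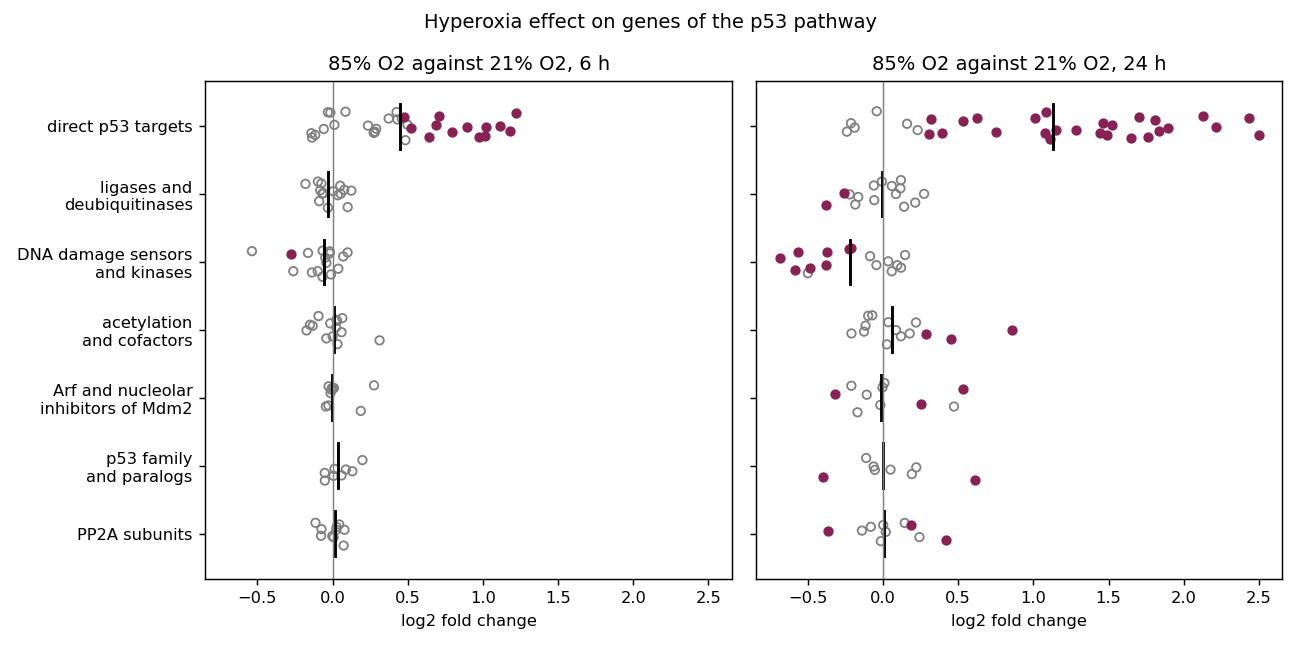
Log2 fold change in hyperoxia against normoxia at 6 h (left) and 24 h (right) for the genes of 7 lists around p53. Filled points passed at an adjusted p under 0.05, open points did not, and black bars are list medians. The direct targets reach medians of 0.45 and 1.13, and the DNA damage sensors and kinases lie at -0.22 at 24 h.

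Counts over time are set against all genes, of which 20.6% rose and 23.5% fell in normoxia and 25% rose and 27.4% fell in hyperoxia. In normoxia 14 of the 32 direct targets rose and 9 fell from 6 h to 24 h, and in hyperoxia 25 rose and 0 fell. Of the 10 Arf and nucleolar genes 8 rose in normoxia and 6 in hyperoxia, with 0 falls. Among the ligases and deubiquitinases 4 rose and 0 fell in normoxia, and 6 rose and 2 fell in hyperoxia. Of the DNA damage genes 2 rose and 3 fell in normoxia, and 2 rose and 7 fell in hyperoxia. For the cofactors the counts were 1 and 2 in normoxia and 5 and 1 in hyperoxia. For the relatives of the members they were 3 and 1, then 3 and 2. For PP2A they were 1 and 1 in each group.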

How the data were processed

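Total RNA of 16 samples of primary mouse alveolar type II cells was labelled with Cy3 and hybridised to 1-colour arrays, per the labels. Per the file headers, the authors' Agilent Feature Extraction 10.7.3.1 files give processed signals as an intensity, background-subtracted within the array and not normalized between arrays. The authors' deposited series table holds log2 values whose normalization is not given in the sources used here; it served as an alternative. No spot was saturated.

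Spots of a probe were averaged on the log2 scale, leaving out outlier-marked spots where another remained, and each array was shifted to set its 75th percentile over non-control probes to 0. The brightest probe stood for its gene. Genes entered the test where Feature Extraction marked this probe as well above background in 3 or 4 arrays of any group (25408 of 34781 gene names). Names came from RefSeq accessions (27428 probes), symbols (3483) or older symbols (507), with 24263 file names kept. The fit was made with limma 3.58.1 (R 4.3.3), with 1 mean per group over 16 arrays, two-sided moderated tests and Benjamini-Hochberg adjustment over all 25408 genes, at 0.05. The script was tested on simulated data with changes added to hyperoxia at 24 h. It recovered 55 of 100 changes of 0.5 and 77 of 100 changes of 1 on the log2 scale, with 6 false calls. The limit for changes of 1 was lowered after a first run fell short of it.

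The members and lists were chosen with earlier results of these data known. Named genes are the 6 members, the 3 nearest patterns of each, and per list up to 3 called genes with the largest change at 24 h of hyperoxia and up to 2 at 6 h. One gene that this rule names is not reported here. Between oxygen groups, deviations from the group mean of arrays with 1 number had correlations of 0.244 to 0.345 at 24 h. Every pair there was above the limit of 0.1. At 6 h the range was 0.0863 to 0.355, and replicate 4 missed the limit. Arrays with 1 number also share a slide column, so a pairing of samples cannot be told apart from a shared column. Alternatives were quantile normalization, normexp background correction, the deposited table, no filter, replicate blocks, the 8 compared arrays alone, the other probe of Mdm4 and each array left out.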

Additional observations from a re-analysis of the deposited data

Results flagged for a closer look

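Trp53 in normoxia at 6 h had replicate 2 far below the other arrays of its group, at -0.052 against 0.52 to 0.60 on the log2 scale. It was the single such array among 28 sets of 4 values checked (7 probes in 4 groups). Chance flags about 1 set in 20, so 1 flag among 28 sets is near what chance gives. Without that array the hyperoxia effect on Trp53 at 6 h was -0.17 ± 0.21 and still did not pass (adjusted p = 0.981).

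The hyperoxia effect differed between 6 h and 24 h, in the test of the difference itself, for Mdm2 by 0.86, for Ccng1 by 0.97 and for Rchy1 by 0.46 on the log2 scale. Each of these differences kept its call in all 22 alternatives, with adjusted p up to 0.000631, 0.000801 and 0.0101.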

How the results depend on the processing

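Each called change of Mdm2, Ppm1d, Ccng1 and Rchy1 at 24 h of hyperoxia kept its direction and call under all 15 alternatives, as did that of Mdm2 at 6 h, and that of Mdm4 at 24 h under 16. At 6 h, 1 member rose without the filter on dim probes, where Ccng1 had an adjusted p of 0.058, and 1 rose and 0 fell in the fit to the 8 arrays compared. Between 1 and 2 members rose at 6 h with 1 array left out, and 3 or 4 had a growing effect. Over all genes at 6 h, 60 rose and 23 fell. Falls were 39 after quantile normalization, 37 with normexp and 37 in the authors' deposited table, and the 8 arrays alone gave 21 rises and 8 falls. Leaving out 1 array gave 33 to 132 rises and 11 to 61 falls, with 37 rises without normoxia replicate 1, 33 and 11 without normoxia replicate 4, 132 and 61 without hyperoxia replicate 3, and 13 falls without hyperoxia replicate 4. The difference of effects had 1293 to 2708 positive and 1159 to 2263 negative genes (1683 and 1431 with all arrays), the highest without hyperoxia replicate 3 at 6 h. Normexp moved the time comparisons, to 8514 rises and 3641 falls in normoxia (5237 and 5980 otherwise, and 70% of calls higher in place of 46.7%, with a median shift of 0.10) and to 4612 falls in hyperoxia (6954 otherwise, and 62.9% higher in place of 47.7%). With the replicate number as a block over both times Ccng1 also rose with time in normoxia (0.20, adjusted p = 0.0381), and no other member's call changed. A replicate block within each time, which gave 4717 rises and 3758 falls at 24 h, changed no member's call. At 6 h, where replicate 4 missed the correlation limit, 7 of 8 arrays correlated best with their own number, which is also their slide column. The causes of these shifts were not tested. All member probes were well above background, and the 2 probes of Mdm4 were the dimmest, with mean log2 signals of 7.58 and 7.28. What limits the precision was not tested.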
